A study of Homo sapiens with 6 samples.

Results

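The genes described here are 36 cytosolic and mitochondrial chaperones, co-chaperones, subunits of the chaperonin TRiC and heat shock transcription factors, of 38557 gene symbols in the deposited tables. They were taken by symbol, and all 36 were found. Their RNA had been measured by sequencing of polyadenylated transcripts from T-24, an established epithelial cell line that derives from a bladder carcinoma. One group of 3 libraries came from cells given CCT068127 at 1 µM for 48 h and the other group of 3 from cells given the vehicle DMSO for 48 h. CCT068127 is known to inhibit CDK2 and CDK9, kinases of the cell cycle and of transcription, and the labels call the DMSO cells wild type and name no genetic change in either group. The cells were of a single adherent line, at 1 dose and 1 time, and the libraries of a group are called independent biological replicates. The gene symbols CCT2 to CCT8 used below are TRiC subunits and have no relation to the name of the compound.

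Molecular chaperones bind unfolded or partly folded proteins and help them reach or keep their native form. HSP70 proteins bind short hydrophobic stretches in a cycle driven by ATP, with J-domain proteins (the DNAJ genes) delivering clients and nucleotide exchange factors releasing them. HSP90 receives part of these clients, protein kinases and steroid receptors among them, through co-chaperones such as CDC37 and STIP1. TRiC is a closed double ring that folds actin, tubulin and other proteins inside its chamber. The transcription factor HSF1 drives the heat-inducible genes by binding heat shock elements, which are inverted repeats of the unit GAA, and cancer cell lines are known to keep many of these genes high without heat.

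Most of the chaperone genes stood higher in CCT068127 cells, relative to the other transcripts of a library. Of the 36 members 34 had enough counts to be tested, 30 of these rose (88.2%), 1 fell and 3 did not pass, at an adjusted p under 0.05 in edgeR's quasi-likelihood test. Over all 13597 genes tested, 31.9% rose and 32.8% fell, 64.7% in either direction. The median log2 fold change of the tested members was 0.81, against -0.05 over all genes tested. HSP90AA1, HSPE1, BAG3 and CDC37 had the highest values (log2 fold changes of 2.37, 1.63, 1.59 and 1.52). The CPM (counts scaled to a fixed library size, with TMM) of 31 members did not overlap between the groups (91.2%, against 69.4% of all genes), and 9 members were called at least 2-fold higher (26.5%, against 15.5%). The edgeR p-values set the group difference of a gene against the spread between these libraries, estimated with information shared over genes.

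How large these differences are depends on how libraries are scaled, because the scaling moved the median of all genes. With TMM, the scaling used for the edgeR values here, that median was -0.05. It was -0.36 with library totals and -0.46 from log2(TPM + 1). TPM is the deposited share of transcripts, corrected for gene length. Scaled by library totals, 22 members were called higher and 2 lower, against 3006 (22.1%) and 6567 (48.3%) of all genes. From log2(TPM + 1) values limma called 17 members higher and 4 lower, against 2474 (17.2%) and 7472 (51.9%) of all 14394 genes tested there. The TPM of 23 of the 34 tested members did not overlap between the groups. Of these, DNAJA4, HSPA9, CCT4 and HSF1 were lower in CCT068127 cells. The share of all genes without overlap was not computed for TPM, so the count of 23 cannot be read as particular to the members. Set against the median of all genes, the median of the members stood 0.86, 0.85 and 0.79 higher (log2) with TMM, library totals and log2(TPM + 1), and 32 of 34 members stood above the median of all genes under each of the 3. The call of 16 members was kept in every alternative that gave a test. These were HSP90AA1, HSP90AB1, CDC37, AHSA1, STIP1, CHORDC1, HSPH1, DNAJB1, BAG3, HSPE1, TCP1, CCT3, CCT5, CCT7, CCT8 and HSF2. No spike-in is named in the labels, so more RNA of a gene per cell and less of the other RNAs cannot be told apart.

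The libraries held 5557546, 1966742 and 4657316 counts in CCT068127 replicates 1 to 3 and 371044040, 411097626 and 5955296 in DMSO replicates 1 to 3. Against DMSO replicate 3 alone, the only shallow control, the median log2 fold change of the members was 0.76 and HSP90AA1 stood at 2.31 (effect sizes only). The keratins KRT7, KRT8, KRT18 and KRT19 ranged from 191 to 2648 TPM and EPCAM from 2.67 to 5.71 TPM over the 6 libraries. Among them KRT8 had 2101 ± 290 TPM in CCT068127 cells and 853 ± 72.9 TPM in DMSO cells (SD, n = 3 each). It rose by 1.79 on the log2 scale (edgeR adjusted p = 7.71e-07), KRT19 by 1.02 (edgeR adjusted p = 2.53e-04) and KRT7 by 0.88 (edgeR adjusted p = 3.09e-04), and KRT18, at 0.43 in counts (edgeR adjusted p = 0.0276), averaged 1100 TPM in CCT068127 cells and 1148 TPM in DMSO cells. The mesenchymal intermediate filament VIM ranged from 322 to 422 TPM. The leukocyte, T cell and erythroid markers PTPRC, CD3E and HBB were at or under 0.52 TPM, ALB at or under 0.99 and the endothelial marker PECAM1 at or under 3.3. PECAM1 had 0.653 ± 0.267 TPM in CCT068127 cells and 2.90 ± 0.57 TPM in DMSO cells (-1.23 on the log2 scale, edgeR adjusted p = 0.00479). The part of these differences in the chaperone results was not tested.

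**Figure D1:**
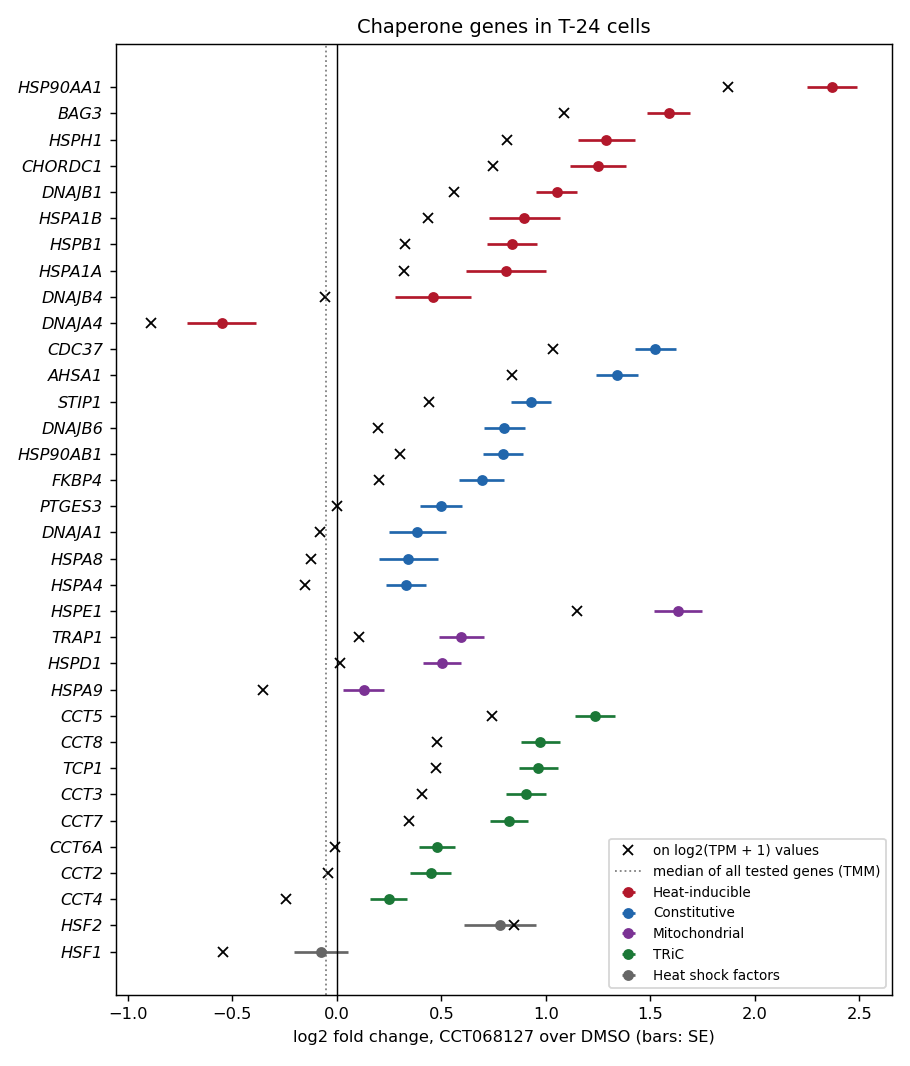
Log2 fold change (CCT068127 over DMSO) of the 34 tested chaperone genes, grouped by class, from edgeR with TMM scaling (coloured points, bars are SE) and on log2(TPM + 1) values (crosses), with the median of all tested genes dotted. HSP90AA1 lies farthest to the right at 2.37, and the crosses lie left of the points for all genes but HSF2, which puts DNAJB4, DNAJA1, HSPA8, HSPA4, HSPA9, CCT6A, CCT2 and CCT4 below 0 on that scale.

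The median log2 fold change differed between the 4 classes. Of 10 tested heat-inducible genes, 9 rose and 1 fell, with a median log2 fold change of 0.97. Of the 8 TRiC subunits all rose (median 0.86), of 10 constitutive cytosolic genes 9 rose (median 0.74), and of 4 mitochondrial genes 3 rose (median 0.55). These medians were 0.66, 0.55, 0.43 and 0.24 with library totals, where 8, 5, 6 and 2 genes rose. From log2(TPM + 1) values they were 0.50, 0.38, 0.20 and 0.062, and 6, 5, 4 and 1 genes rose. On that scale 1 gene each of the inducible, TRiC and mitochondrial classes fell. Of all genes tested 31.9% rose with TMM, 22.1% with library totals and 17.2% on log2(TPM + 1) values. The order of the classes was the same under these 3 scalings, but no test of a difference between classes was made, since the members of a class are not replicates.

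In TPM, which allows levels of different genes to be added, the 36 genes together took 0.919%, 0.979% and 0.931% of the total in the CCT068127 libraries, against 0.673%, 0.699% and 0.710% in the DMSO libraries. The groups did not overlap (exact permutation p = 0.1, two-sided, which is the lowest value 6 libraries in 2 equal groups can give). HSP90AA1 alone made up 14.8% ± 1.97 of the members' TPM in CCT068127 cells and 5.45% ± 0.0235 in DMSO cells (SD, n = 3 each). Without it, the sum of the members was still higher in every CCT068127 library, at 8029 ± 130.2 TPM, against 6564 ± 177 TPM in DMSO. The inducible genes summed to 2591 ± 173 TPM in CCT068127 cells and 1253 ± 75 TPM in DMSO cells. Of these sums HSP90AA1 made up 1399 ± 229 TPM and 378 ± 11.6 TPM, and the inducible sum without it was not computed. The sums of the constitutive genes (3635 ± 128 and 3041 ± 161 TPM), the mitochondrial genes (925 ± 74.5 and 749 ± 15.2 TPM) and TRiC (2179 ± 43.9 and 1776 ± 45.3 TPM) were also higher in every CCT068127 library than in any DMSO library (exact permutation p = 0.1 each). The higher mitochondrial sum does not describe each of its genes. HSPE1 had 359 ± 48.0 TPM in CCT068127 cells and 161 ± 8.62 TPM in DMSO cells. HSPA9 was lower in CCT068127 cells (128 ± 12.7 and 164 ± 10.8 TPM), and HSPD1 and TRAP1 overlapped between the groups. The mitochondrial sum without HSPE1 was not computed.

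**Figure D2:**
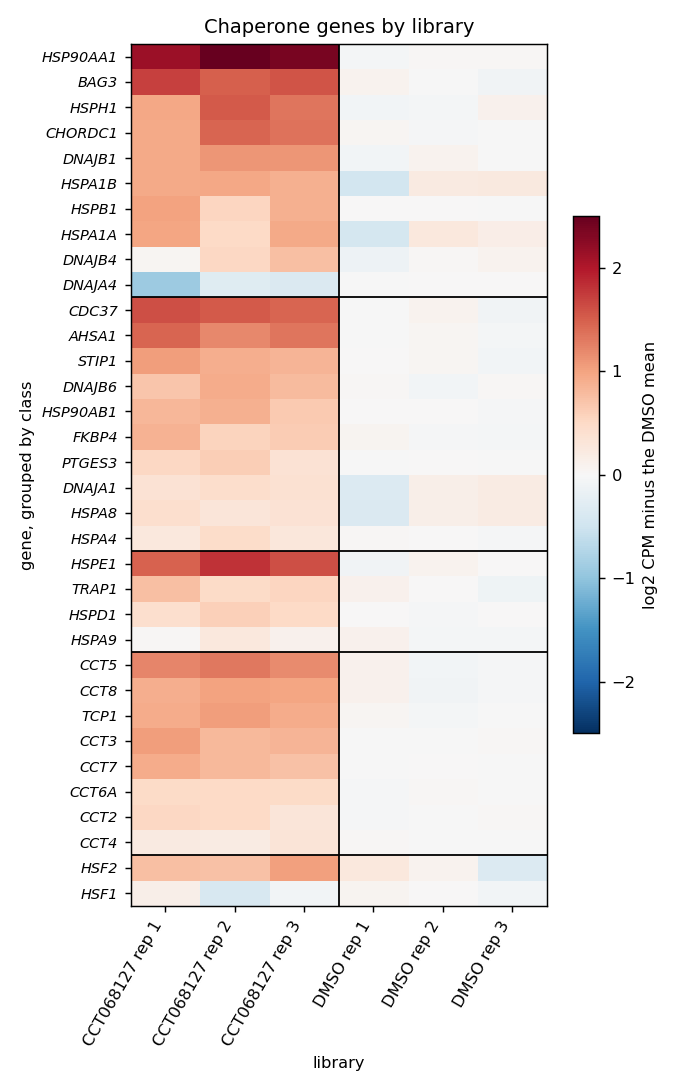
Log2 CPM of each tested chaperone gene in each library, minus the mean of the DMSO libraries (red is higher, blue lower, TMM scaling), with CCT068127 libraries on the left and classes separated by horizontal lines. HSP90AA1 is darkest in all 3 CCT068127 libraries, DNAJA4 is blue there, and DMSO replicate 1 is bluer (lower) than the other DMSO libraries for HSPA1A, HSPA1B, HSPA8 and DNAJA1.

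HSP90 has 2 cytosolic forms, the heat-inducible HSP90AA1 (chr14:102080738-102139699, minus strand, GRCh38) and the mostly constitutive HSP90AB1 (chr6:44246166-44253888, plus strand). HSP90AA1 had 1165, 1624 and 1407 TPM in the CCT068127 libraries, against 366, 380.3 and 389 TPM in the DMSO libraries. The lowest treated library was far above the highest DMSO library, and the count fit put it 5.17-fold higher, at 2.37 ± 0.12 on the log2 scale (SE; edgeR adjusted p = 1.07e-07). HSP90AB1 had 1097, 1195 and 1018 TPM in CCT068127 cells, against 908, 887 and 882 TPM in DMSO cells. It rose by 0.79 ± 0.09 (edgeR adjusted p = 3.27e-05), and its groups did not overlap either.

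The balance of both forms was compared within each library, a comparison that no scaling of libraries can change. HSP90AA1 stood at 1.06, 1.36 and 1.38 times HSP90AB1 in the CCT068127 libraries and at 0.403, 0.429 and 0.441 times in the DMSO libraries (exact permutation p = 0.1, the smallest possible). Thus HSP90AA1 was the more abundant transcript in all 3 CCT068127 libraries and the less abundant one in all 3 DMSO libraries. Their sum was 2502 ± 286 TPM in CCT068127 cells and 1271 ± 3.43 TPM in DMSO cells.

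**Figure D3:**
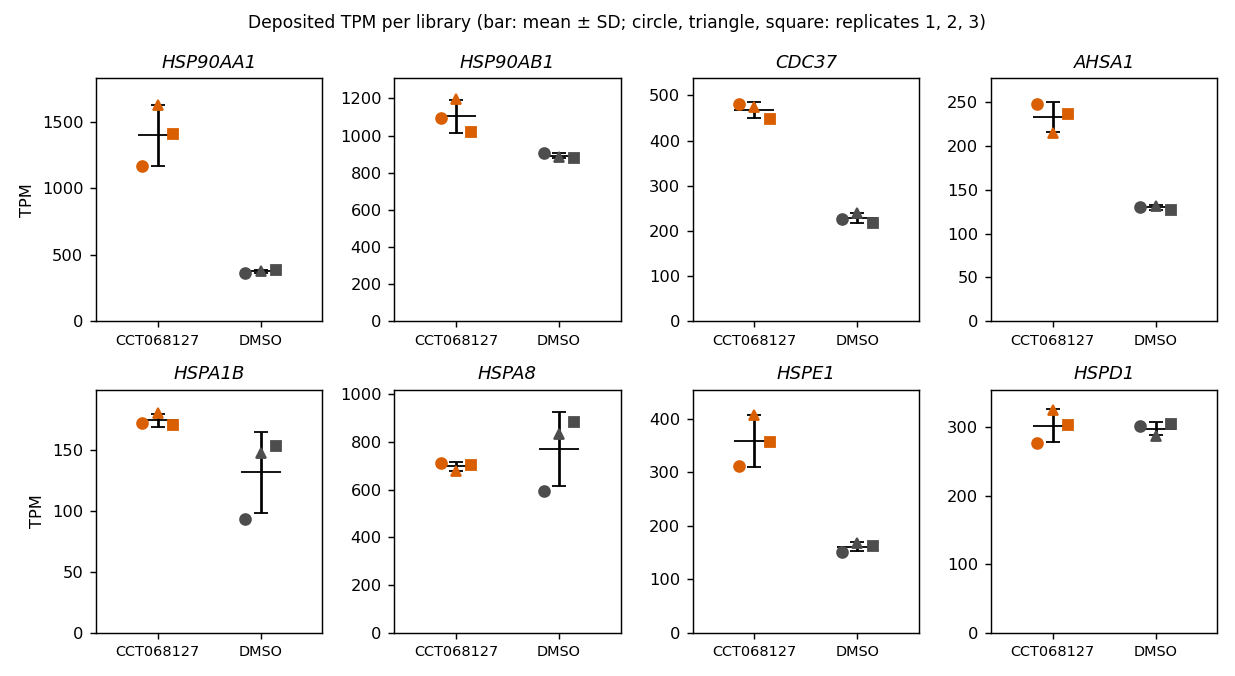
Deposited TPM per library for HSP90AA1, HSP90AB1, the co-chaperones CDC37 and AHSA1, the HSP70 genes HSPA1B and HSPA8 and the mitochondrial pair HSPE1 and HSPD1 (symbols are replicates 1 to 3, bars are mean ± SD). CCT068127 and DMSO libraries are apart for all but HSPA8 and HSPD1, and DMSO replicate 1 is the lowest DMSO library for HSPA1B and HSPA8.

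The heat shock element was searched in the 250 bases before each RefSeq start site (GRCh38.p14), as 3 alternating units spelled GAANNTTCNNGAA or TTCNNGAANNTTC, which are reverse complements, with overlapping matches counted. Start sites were given for 32 of the 36 members. The element was found for 6 of these 32 genes (18.8%), HSP90AA1, HSP90AB1, CHORDC1, HSPA8, DNAJB6 and HSPD1, and for 152 of 27305 genes in all (0.557%). The shorter form with 2 units (GAANNTTC or TTCNNGAA) was found for 16 of the 32 (50%) and for 14% of all genes. The matches before the start sites of 5 of these genes are shown, 5′ to 3′ on the strand of the gene with the element in capitals, because they place members with large and small differences side by side. HSP90AA1 lies at chr14:102087111-102087140 (minus), HSP90AB1 at chr6:44247756-44247865 (plus), CHORDC1 at chr11:90223083-90223112 (minus), DNAJB6 at chr7:157336843-157336915 (plus), and the farther and nearer match of HSPA8 at chr11:123062345-123062374 and chr11:123062170-123062199 (minus).
HSP90AA1: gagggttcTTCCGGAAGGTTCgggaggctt
HSP90AB1: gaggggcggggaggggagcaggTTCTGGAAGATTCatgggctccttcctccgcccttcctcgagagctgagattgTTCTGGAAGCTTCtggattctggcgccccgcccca
CHORDC1: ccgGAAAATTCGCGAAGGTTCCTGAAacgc
DNAJB6: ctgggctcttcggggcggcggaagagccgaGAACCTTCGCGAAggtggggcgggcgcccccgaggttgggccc
HSPA8 farther: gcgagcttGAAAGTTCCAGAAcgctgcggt
HSPA8 nearer: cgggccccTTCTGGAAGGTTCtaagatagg

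In CHORDC1 3 matches overlap in 1 run, HSP90AB1 and HSPA8 hold 2 separate matches each, and HSP90AA1 and DNAJB6 hold 1. The genes with a match ranged in log2 fold change from 0.34 (HSPA8, which did not pass) to 2.37 (HSP90AA1). HSPE1, BAG3, CDC37 and AHSA1, among the members with the largest values, had no 3-unit match in this window. The heat-inducible members HSPA1A, HSPA1B, HSPB1, HSPB8, HSPH1, DNAJA4, DNAJB1 and DNAJB4 had none either. The search required exact letters within 250 bases, so a missing match does not mean that a gene lacks an element. The windows shown for HSP90AA1, CHORDC1 and HSPA8 lie inside exons of other transcripts in GENCODE v29. A match describes letters in the reference only, and binding was not measured.

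All 6 co-chaperones of HSP90 among the members rose in counts with TMM scaling, from 0.50 for PTGES3 to 1.52 for CDC37, against 31.9% of all genes tested. CDC37, which hands protein kinases to HSP90, had 480, 474 and 448 TPM in the CCT068127 libraries, against 227, 239.5 and 217 TPM in the DMSO libraries. It rose by 1.52 ± 0.10 (edgeR adjusted p = 3.79e-07), and its groups did not overlap. AHSA1, the activator of the HSP90 ATPase, had 248, 214 and 236 TPM in CCT068127 cells, against 130.1, 132 and 127 TPM in DMSO cells. It rose by 1.34 ± 0.10 (edgeR adjusted p = 1.19e-06). Its paralog AHSA2P, named as a pseudogene, fell by 1.44 ± 0.16 on the log2 scale (edgeR adjusted p = 2.37e-05), with 22.8 ± 5.78 TPM in CCT068127 cells and 83.0 ± 5.89 TPM in DMSO cells.

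STIP1, the adaptor that bridges HSP70 and HSP90, had 369, 348 and 333 TPM in the CCT068127 libraries, against 262, 264 and 248 TPM in the DMSO libraries, and rose by 0.93 ± 0.09 (edgeR adjusted p = 1.1e-05). CHORDC1, an HSP90-binding protein whose gene is itself heat-inducible, had 29.4, 43.6 and 40.6 TPM in CCT068127 cells, against 22.7, 21.0 and 21.9 TPM in DMSO cells. It rose by 1.25 ± 0.13 (edgeR adjusted p = 1.56e-05), and its groups did not overlap. FKBP4, an immunophilin of steroid receptor complexes, rose by 0.69 ± 0.11 (edgeR adjusted p = 2.3e-04), with 64.8 ± 5.57 TPM in CCT068127 cells and 56.2 ± 2.83 TPM in DMSO cells, but its call was lost on log2(TPM + 1) values (0.20, limma adjusted p = 0.0996).

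PTGES3, the p23 co-chaperone that holds HSP90 closed, differed with the scale. It rose by 0.50 ± 0.10 in counts (edgeR adjusted p = 0.00118), while its TPM was 187 ± 17.5 in CCT068127 cells and 186 ± 0.77 in DMSO cells. The ratio of CDC37 to PTGES3 was 2.60, 2.31 and 2.63 in the CCT068127 libraries. In the DMSO libraries it was 1.22, 1.29 and 1.17 (exact permutation p = 0.1). CDC37 and PTGES3 had the highest and lowest log2 fold changes of the HSP90 co-chaperones among the members in these same data. Their ratio is thus no separate test of whether the co-chaperones changed unequally.

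The HSP70 genes gave results that differed by gene and by scale. HSPA1A (chr6:31815464-31817946) and HSPA1B (chr6:31827735-31830255), the stress-inducible HSP70 genes, lie next to each other and encode nearly the same protein. Of all 75-base stretches of the HSPA1A transcript 71.2% also occur in HSPA1B, so their separate values rest on how reads were divided between them. HSPA1A had 194, 142 and 195 TPM in the CCT068127 libraries, against 104, 167 and 158 TPM in the DMSO libraries, and the groups overlapped. HSPA1B had 172, 180.4 and 171 TPM in CCT068127 cells, against 93.4, 148 and 154 TPM in DMSO cells, with no overlap. In counts HSPA1A rose by 0.81 ± 0.19 (edgeR adjusted p = 0.00413) and HSPA1B by 0.90 ± 0.17 (edgeR adjusted p = 9.69e-04), and summed as 1 gene they rose by 0.85 (edgeR adjusted p = 0.0013). Neither passed on log2(TPM + 1) values.

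DMSO replicate 1 was low for HSPA1A, HSPA1B, HSPA8 and the J-domain gene DNAJA1. Its TPM was 0.619 times the mean of DMSO replicates 2 and 3 for HSPA1B, 0.642 times for HSPA1A, 0.693 times for HSPA8 and 0.709 times for DNAJA1. The median of this ratio over all genes was 1.01, and 29 of the 34 tested members lay within 15% of 1. Without DMSO replicate 1, HSPA1A still rose by 0.59 (edgeR adjusted p = 0.00342) and HSPA1B by 0.67 (edgeR adjusted p = 1.54e-04).

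HSPA8, the constitutive HSC70 and the most abundant of the HSP70 members, did not pass. It had 714, 678 and 706 TPM in the CCT068127 libraries, against 596, 835 and 886 TPM in the DMSO libraries. In TPM the treated values lay inside the range of the DMSO values, while in CPM with TMM they lay above it (986 to 1072 in CCT068127 cells, against 622 to 923 in DMSO cells). The fit gave 0.34 ± 0.14 on the log2 scale (edgeR adjusted p = 0.0512). HSPA8 passed with DESeq2 (0.37, DESeq2 adjusted p = 0.0425), with DESeq2's size factors in edgeR (adjusted p = 0.0408) and with DMSO replicates 1 and 2 thinned to the depth of DMSO replicate 3 (edgeR adjusted p = 0.0443), and stood at 0.029 with library totals (edgeR adjusted p = 0.863). The value was 0.16 without DMSO replicate 1 (edgeR adjusted p = 0.187) and 0.41 without DMSO replicate 3 (edgeR adjusted p = 0.0441). DNAJA1, a J-domain partner of HSC70, had 186, 203 and 194 TPM in CCT068127 cells, against 164, 224 and 238 TPM in DMSO cells. It passed in counts (0.38 ± 0.14, edgeR adjusted p = 0.0288), but its value was 0.21 without DMSO replicate 1 (edgeR adjusted p = 0.0972) and -0.083 on log2(TPM + 1) values. The call was also lost without CCT068127 replicate 1, 2 or 3 (edgeR adjusted p of 0.0733, 0.0929 and 0.0941).

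HSPH1 and HSPA4 are HSP110 proteins, which exchange the nucleotide on HSP70. HSPH1, the inducible one, had 56.9, 87.1 and 75.1 TPM in the CCT068127 libraries, against 39.2, 38.9 and 43.4 TPM in the DMSO libraries, and rose by 1.29 ± 0.14 (edgeR adjusted p = 1.52e-05). HSPA4 passed by a smaller margin in counts (0.33 ± 0.09, edgeR adjusted p = 0.0104), with 71.2 ± 6.43 TPM in CCT068127 cells and 79.0 ± 1.63 TPM in DMSO cells, and stood at 0.018 with library totals and at -0.15 on log2(TPM + 1) values. Its call was lost without DMSO replicate 2 or 3 (edgeR adjusted p of 0.0635 and 0.0662). BAG3, another exchange factor for HSP70 that links it to autophagy, had 124, 111 and 116.5 TPM in CCT068127 cells, against 58.5, 53.7 and 52.2 TPM in DMSO cells. It rose by 1.59 ± 0.10 (edgeR adjusted p = 4.54e-07), and its groups did not overlap.

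Of the 5 J-domain members 4 passed as higher in counts with TMM (DNAJA1, DNAJB1, DNAJB4 and DNAJB6) and DNAJA4 as lower, against 31.9% higher and 32.8% lower of all genes tested. On log2(TPM + 1) values DNAJA1 and DNAJB4 turned below 0. DNAJB1, the classical stress-inducible HSP40, had 87.9, 101 and 101 TPM in the CCT068127 libraries, against 62.4, 68.1 and 65.3 TPM in the DMSO libraries, and rose by 1.05 ± 0.10 (edgeR adjusted p = 6.18e-06). DNAJB6, a suppressor of protein aggregation, rose by 0.80 ± 0.10 (edgeR adjusted p = 4.18e-05), although its TPM overlapped (241, 296 and 260 in CCT068127 cells, against 242, 216 and 236 in DMSO cells) and gave no call (0.19 on log2(TPM + 1) values). DNAJB4 was at the threshold (0.46 ± 0.18, edgeR adjusted p = 0.047), stood at 0.23 without CCT068127 replicate 3 (edgeR adjusted p = 0.325) and at -0.058 on log2(TPM + 1) values. Its call was lost in 5 of 6 fits that left out a library, all but the one without CCT068127 replicate 1 (edgeR adjusted p from 0.0804 to 0.325), and in limma-voom (adjusted p = 0.0629). DNAJA4, a heat-inducible J-domain gene of low expression, was the only member that fell with TMM scaling. It had 4.82, 7.98 and 7.33 TPM in CCT068127 cells, against 13.02, 12.82 and 13.25 TPM in DMSO cells. The fit gave -0.55 ± 0.16 on the log2 scale (edgeR adjusted p = 0.0128), a call that was lost when DMSO replicates 1 and 2 were thinned to the depth of DMSO replicate 3 (-0.43, edgeR adjusted p = 0.0635).

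Small heat shock proteins hold unfolded proteins without using ATP. Of those among the members, only HSPB1 was expressed at a level that could be tested. HSPB1 (HSP27) had 554, 417 and 531 TPM in the CCT068127 libraries, against 399, 394 and 394 TPM in the DMSO libraries, and rose by 0.84 ± 0.12 (edgeR adjusted p = 1.29e-04). CCT068127 replicate 2 stood close to the DMSO libraries, and the call was lost on log2(TPM + 1) values without a filter (0.33, limma adjusted p = 0.0754). HSPB8, the partner of BAG3, had 0 counts in the CCT068127 libraries and 6, 3 and 0 counts in the DMSO libraries. CRYAB, the alpha-B crystallin gene, had 0 counts in the CCT068127 libraries and 21, 27 and 0 counts in the DMSO libraries. The 0 counts in CCT068127 cells allow up to 0.246 CPM (3 counts over the group, by library totals without TMM). This is above the pooled DMSO levels of 0.0114 CPM for HSPB8 and 0.0609 CPM for CRYAB on the same scale, so a difference was not detectable at this depth.

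In the mitochondrion, HSPD1 (HSP60) and HSPE1 (HSP10) form a barrel and its lid, and their genes lie head to head on chromosome 2. The RefSeq start sites used have 104 bases between them (chr2:197500275-197500378), a stretch with 74% G or C and no heat shock element of 3 or 2 units. An alternative start of HSPD1 has a pair of overlapping 3-unit matches in its window (chr2:197499841-197500090). That window lies outside the 250 bases searched for HSPE1 (chr2:197500129-197500378). The search thus does not show that the pair differs in heat shock elements. HSPE1 had 312, 408 and 357 TPM in the CCT068127 libraries, against 151, 168 and 163 TPM in the DMSO libraries. It rose by 1.63 ± 0.11 (edgeR adjusted p = 7.29e-07), or 3.1-fold, with no overlap. HSPD1 had 277, 325 and 303 TPM in CCT068127 cells, against 302, 287 and 304 TPM in DMSO cells. The TPM values of HSPD1 overlapped and stood at 0.017 on the log2(TPM + 1) scale, while in counts it passed (0.50 ± 0.09, edgeR adjusted p = 6.32e-04).

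The pair thus differed within a library, with an HSPE1 to HSPD1 ratio of 1.13, 1.26 and 1.18 in the CCT068127 libraries and of 0.501, 0.585 and 0.537 in the DMSO libraries (exact permutation p = 0.1). Their exons overlap by 281 bases on opposite strands in GENCODE v29, and no source used here gives the strandedness of the libraries, so the reads of that stretch cannot be assigned with certainty. The read-through gene HSPE1-MOB4, which shares 192 exon bases with HSPE1, was listed at 0 TPM in every CCT068127 library and at 0.0667 TPM on average in DMSO.

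HSPA9, the mitochondrial HSP70 (mortalin), had 116, 141 and 128 TPM in the CCT068127 libraries, against 176, 156 and 159.9 TPM in the DMSO libraries. It did not pass in counts (0.13 ± 0.10, edgeR adjusted p = 0.275) and was lower on log2(TPM + 1) values (-0.36, limma adjusted p = 0.0141). Relative to the median of all genes it stood at 0.18 with TMM and at 0.11 on log2(TPM + 1) values. TRAP1, the mitochondrial HSP90, passed in counts (0.60 ± 0.11, edgeR adjusted p = 7e-04), with 136 ± 10.9 TPM in CCT068127 cells and 126 ± 9.54 TPM in DMSO cells, which overlapped and gave no call (0.11 on log2(TPM + 1) values). It shares 1531 exon bases with DNASE1 on the opposite strand, a gene at 7.4 ± 1.4 TPM in CCT068127 cells and 7.89 ± 0.73 TPM in DMSO cells.

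**Figure D4:**
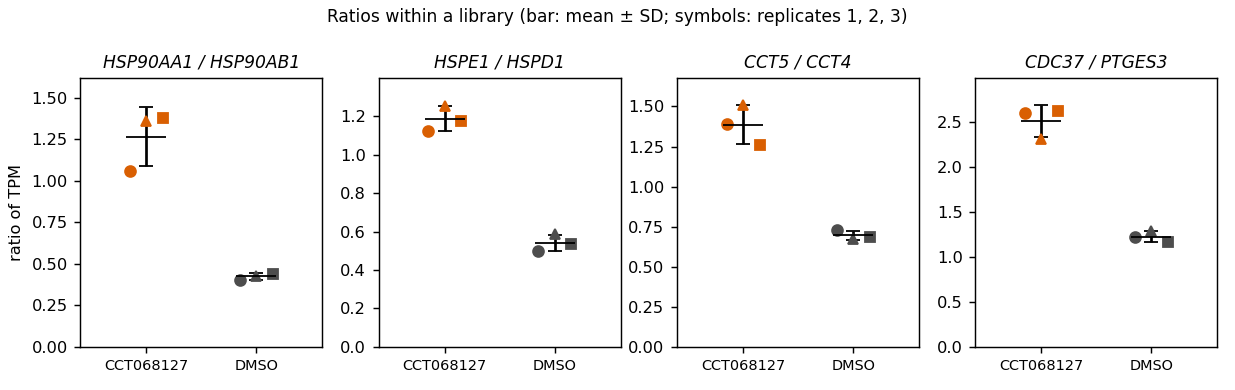
Ratios of TPM between members within each library (symbols are replicates 1 to 3, bars are mean ± SD). HSP90AA1 to HSP90AB1, HSPE1 to HSPD1, CCT5 to CCT4 and CDC37 to PTGES3 were each higher in all 3 CCT068127 libraries than in any DMSO library. CCT5 and CCT4 had the highest and lowest log2 fold changes of the TRiC subunits in these data, and CDC37 and PTGES3 those of the HSP90 co-chaperones.

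All 8 TRiC subunit genes passed with a positive log2 fold change with TMM scaling, from 0.25 for CCT4 to 1.23 for CCT5, against 31.9% of all genes tested. However, CCT4 was at -0.064 with library totals, and CCT2, CCT4 and CCT6A were below 0 on log2(TPM + 1) values. A TRiC ring holds 1 copy of each subunit. CCT5 had 245, 272 and 246 TPM in the CCT068127 libraries, against 164, 143 and 149 TPM in the DMSO libraries (1.23 ± 0.10, edgeR adjusted p = 1.41e-06). CCT8 rose by 0.97, TCP1 by 0.96, CCT3 by 0.90 and CCT7 by 0.82, each with an SE at or under 0.10 (edgeR adjusted p from 6.74e-06 to 2.03e-05), and these 5 genes did not overlap between groups in TPM.

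The other 3 subunits passed by less. CCT6A rose by 0.48 (edgeR adjusted p = 6.51e-04) and CCT2 by 0.45 (edgeR adjusted p = 0.00198) in counts. On log2(TPM + 1) values they stood at -0.0069 and -0.042. CCT4 had 176, 181 and 195 TPM in the CCT068127 libraries, against 224, 212 and 216 TPM in the DMSO libraries. It passed as higher in counts (0.25 ± 0.09, edgeR adjusted p = 0.0305) but was lower on log2(TPM + 1) values (-0.24, limma adjusted p = 0.0244), and without DMSO replicate 1, 2 or 3 or CCT068127 replicate 3 its edgeR adjusted p was between 0.0586 and 0.165.

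The makeup of the TRiC transcripts was compared as shares, which do not depend on library scaling. Of the summed TPM of the subunits CCT5 took 11.7% ± 0.51 in CCT068127 cells and 8.54% ± 0.42 in DMSO cells (SD, n = 3 each). CCT4 took 8.45% ± 0.60 in CCT068127 cells and 12.2% ± 0.14 in DMSO cells, and the ratio of CCT5 to CCT4 was 1.39, 1.51 and 1.26 in the CCT068127 libraries and 0.729, 0.674 and 0.688 in the DMSO libraries. CCT2 (9.07% and 11.5%) and CCT6A (7.98% and 9.85%) also took smaller shares in CCT068127 cells, while TCP1 (8.33% and 7.34%) and CCT8 (16.2% and 14.2%) took larger ones. These 6 shares did not overlap between the groups (exact permutation p = 0.1 each, the smallest possible). CCT7 held the largest share in both groups (24.4% ± 0.99 and 23.5% ± 0.40, exact permutation p = 0.2), and CCT3 overlapped (13.9% ± 1.03 and 12.8% ± 0.33, exact permutation p = 0.3). The highest subunit was 3.06 ± 0.21 times the lowest in CCT068127 cells and 3.21 ± 0.11 times in DMSO cells (exact permutation p = 0.4). The coefficient of variation of TPM over the 8 subunits was 45.5% ± 2.66 in CCT068127 cells and 40.1% ± 0.92 in DMSO cells, and these values did not overlap (exact permutation p = 0.1).

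**Figure D5:**
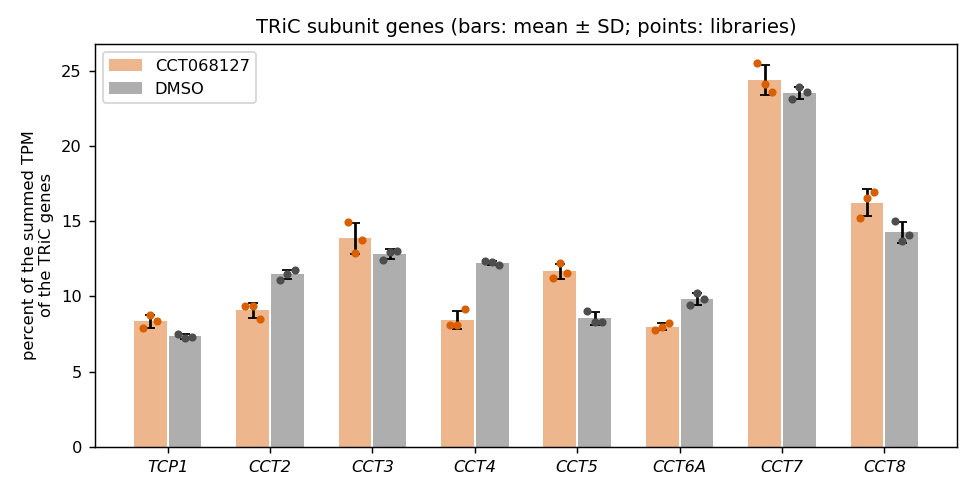
Percent of the summed TPM of the TRiC genes taken by each subunit gene, in CCT068127 (orange, left of each pair) and DMSO (grey) libraries (bars are mean ± SD, points are libraries). CCT4, CCT2 and CCT6A are lower and CCT5, CCT8 and TCP1 higher in CCT068127, and CCT7 is the highest in both groups.

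TCP1 shares 397 exon bases with ACAT2, a gene of cholesterol synthesis on the opposite strand, which rose by 2.10 ± 0.31 (edgeR adjusted p = 5.96e-04; 119.8 ± 5.22 TPM in CCT068127 cells and 38.1 ± 18.8 TPM in DMSO cells). What reads from ACAT2 add to TCP1 was not tested. CCT6A shares sequence with a pseudogene, CCT6P3, of which 3.51 ± 0.48 TPM were listed in CCT068127 cells and 5.31 ± 0.14 TPM in DMSO cells.

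Of the 2 heat shock factors among the members HSF2 rose. HSF1, the main activator of the heat shock response, is regulated mostly at the protein level, and its transcript did not pass. It had 89.1, 67.8 and 77.1 TPM in the CCT068127 libraries, against 119, 114 and 107 TPM in the DMSO libraries. With TMM its log2 fold change was -0.08 ± 0.13 (edgeR adjusted p = 0.623), with library totals -0.39 (edgeR adjusted p = 0.0186) and on log2(TPM + 1) values -0.54 (limma adjusted p = 0.00387), close to the median of all genes under each scaling. HSF2, a developmental factor that can pair with HSF1, had 15.5, 18.3 and 23.7 TPM in CCT068127 cells, against 12.1, 10.6 and 7.92 TPM in DMSO cells. It rose by 0.78 ± 0.17 (edgeR adjusted p = 0.00231), and the groups did not overlap, though against DMSO replicate 3 alone the value was 1.16.

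Genes that work beside the members were counted in lists drawn up with earlier results of these data known. Over all genes tested 31.9% rose and 32.8% fell with TMM, 22.1% and 48.3% with library totals, and 17.2% and 51.9% on log2(TPM + 1) values. Of 13 tested prefoldin subunits and TRiC helpers 7 rose and 0 fell with TMM in edgeR (median 0.86; 0 also at an unadjusted p under 0.05 and with DESeq2 or limma-voom), 7 rose and 3 fell with library totals, and 7 and 5 of 14 did so on the log2(TPM + 1) scale. Among them the prefoldin subunit VBP1 rose by 2.12 (edgeR adjusted p = 5.89e-07) and the tubulin cofactor TBCD by 1.34 (edgeR adjusted p = 8.45e-07). Of 12 actins and tubulins, the main TRiC substrates, 11 rose and 1 fell with TMM and with library totals (medians 1.26 and 0.94), as did 11 and 1 of 13 on log2(TPM + 1) values. TUBB2A rose by 3.86 (edgeR adjusted p = 9.82e-08) and TUBA1B by 2.65 (edgeR adjusted p = 1.94e-07), while cytoplasmic gamma-actin ACTG1 fell by 0.35 on the log2 scale (edgeR adjusted p = 0.0283).

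Of 18 further HSP90 co-chaperones 8 rose (44.4%) and 1 fell with TMM (median 0.27). With library totals 3 rose (16.7%, against 22.1% of all genes) and 2 fell (median -0.042), while limma on log2(TPM + 1) gave 3 higher and 5 lower. CACYBP, the calcyclin-binding protein, rose by 1.70 (edgeR adjusted p = 4.44e-07) and NUDC, a nuclear movement protein, by 1.34 (edgeR adjusted p = 2.11e-06), and the tuberous sclerosis gene TSC1 fell by 0.59 on the log2 scale (edgeR adjusted p = 0.00299). Of 4 tested further HSP70 and HSP110 genes 3 rose and 0 fell with TMM in edgeR (0 also at an unadjusted p under 0.05 and with DESeq2 or limma-voom), 2 and 1 with library totals, and 1 and 1 on log2(TPM + 1) values. HSPA2, an HSP70 best known from testis, rose by 3.64 (edgeR adjusted p = 1.27e-06) with a mean of only 4.42 ± 1.21 TPM in CCT068127 cells and 0.44 ± 0.087 TPM in DMSO cells. HSPA4L rose by 0.75 in counts (edgeR adjusted p = 0.00125) and stood at -0.16 on log2(TPM + 1) values.

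Of 20 further J-domain genes 4 rose and 9 fell with TMM (45% lower, against 32.8% of all genes, median -0.28), and 3 rose and 12 fell both with library totals and on log2(TPM + 1) values (60% lower, against 48.3% and 51.9% of all genes). DNAJB12, a J-domain protein of the endoplasmic reticulum membrane, fell by 1.34 (edgeR adjusted p = 2.16e-06) and DNAJC7, a J-domain protein that binds both HSP70 and HSP90, fell by 0.99 (edgeR adjusted p = 4.33e-05), both on the log2 scale. The splicing-related DNAJC8 rose by 1.06 (edgeR adjusted p = 3.01e-06). Of 12 BAG proteins and HSP70 partners 4 rose (33.3%, against 31.9% of all genes) and 5 fell (41.7%, against 32.8%) with TMM, while 0 rose and 6 fell with library totals, and 0 and 8 from log2(TPM + 1) in limma. At an unadjusted p under 0.05 the numbers that rose were 1 and 0 on these scales, and with DESeq2 and limma-voom on their own scaling they were 4 and 3. HIKESHI, the nuclear carrier of HSP70, fell by 0.77 (edgeR adjusted p = 1.39e-04) and the ubiquilin UBQLN4 by 0.71 (edgeR adjusted p = 3.32e-04), both on the log2 scale, while BAG4 rose by 0.64 (edgeR adjusted p = 0.00173), a call lost with library totals (edgeR adjusted p = 0.0526).

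Of 15 mitochondrial quality control genes 3 rose (20%) and 5 fell (33.3%) with TMM, and the share that fell was near the 32.8% of all genes. With library totals 2 rose and 9 fell (60%, against 48.3% of all genes), while limma on log2(TPM + 1) gave 1 higher and 10 lower (66.7%, against 51.9%). TIMM44, which docks HSPA9 at the import channel, fell by 0.87 (edgeR adjusted p = 1.11e-04) and the iron-sulfur J-protein HSCB by 1.13 (edgeR adjusted p = 1.62e-04), both on the log2 scale. The disaggregase CLPB rose by 0.90 (edgeR adjusted p = 2e-04). Of 12 regulators and further targets of heat shock factors 7 rose and 3 fell with TMM (6 and 4 with library totals and on log2(TPM + 1) values). HSBP1, which binds HSF1 trimers, rose by 1.90 (edgeR adjusted p = 1.25e-07) and IER5L, a relative of the HSF1 partner IER5, by 1.96 (edgeR adjusted p = 1.27e-06), and HSBP1L1 fell by 1.19 on the log2 scale (edgeR adjusted p = 1.16e-04).

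Chaperones of the endoplasmic reticulum, a compartment outside the member list, gave 15 higher and 2 lower of 20 with TMM (median 0.82), 12 and 4 with library totals, and 11 and 4 on log2(TPM + 1) values. The disulfide isomerases PDIA6 and P4HB rose by 1.63 (edgeR adjusted p = 2.44e-07) and 1.41 (edgeR adjusted p = 8.34e-07), and DNAJB9 fell by 1.14 on the log2 scale (edgeR adjusted p = 9.58e-05). The median of this list lay close to that of the cytosolic and mitochondrial members (0.81), and the difference between the lists was not tested.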

How the data were processed

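Poly(A) RNA of 6 T-24 libraries, 3 from CCT068127-treated and 3 from DMSO-treated cells, was sequenced on a NovaSeq after NEB Ultra II library preparation, per the labels' protocols. Sample titles gave the groups and the replicate numbers. The authors deposited expected counts by gene symbol (as whole numbers, hence rounded) and TPM values for the same libraries. The submitters' processing notes name Bowtie, RSEM and the build hg38. Versions, annotation and strandedness: not given in the sources used here. In each library 27 to 203 genes were listed at 0 counts with a TPM above 0.

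Counts were tested in R 4.3.3 with edgeR 4.0.16 (filterByExpr, 10 counts or 1.74 CPM for a library of median size, required in 3 or more; TMM; robust quasi-likelihood fit, treatment as the only term; two-sided). P-values were adjusted over all 13597 genes by the Benjamini-Hochberg method. SEs were approximated from the F statistic. The fit was also run on simulated counts with the same dispersion for every gene and few changed genes. That setting differs from these data, so it does not check the calls made here. CPM used TMM-scaled totals. Depth set a limit of 0.54, 1.53 and 0.644 CPM in CCT068127 replicates 1 to 3 and of 0.00809, 0.0073 and 0.504 CPM in DMSO replicates 1 to 3 for a gene with 0 counts (3 counts of the total). These limits and the pooled CPM of HSPB8 and CRYAB used library totals without TMM. These limits cover counting error only. Within a group, the chi-square per degree of freedom of replicate counts was at least 1.92 after thinning of the deep libraries, so each library counted as 1 replicate.

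Levels of different genes were compared in deposited TPM, and ratios within a library were tested by two-sided exact permutation. Alternatives were DESeq2 size factors or library totals in edgeR, fits without a count filter or with a replicate block, DESeq2 1.42.0, limma-voom and limma-trend (3.58.1) on log2(TPM + 1), either for genes of at least 1 TPM in 3 libraries or for all, and on log2(TPM + 0.1). DMSO replicates 1 and 2 were also thinned to the total of DMSO replicate 3 (1 draw), each library was left out in turn, DMSO replicate 3 served as the sole control, and HSPA1A and HSPA1B were summed (chosen after seeing the data). Fold changes on a log2(TPM + pseudocount) scale understate the change of low genes.

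Gene positions, exon overlaps and shared 75-base stretches came from GENCODE v29 (GRCh38), and sequences before start sites from RefSeq (GRCh38.p14). No start sites were matched for CCT6A, CRYAB, FKBP4 and HSF1. The members and all lists were chosen with earlier results of these data known. All 36 members are accounted for, and of every other list at most 2 called genes in the more common direction and 1 in the other are named, by smallest adjusted p. Paralogs and genes sharing exons with a member are named where they bear on it.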

Additional observations from a re-analysis of the deposited data

How the results depend on the processing

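Across 17 alternatives, the direction of the 31 members called with TMM held in edgeR with DESeq2 size factors, DESeq2, limma-voom, without a count filter, under thinning and without any 1 library, but not every call did. With library totals CCT4 was at -0.064. On log2(TPM + 1), with or without a filter, DNAJB4 was at -0.058, HSPA4 at -0.15, DNAJA1 at -0.083, HSPA9 (not called with TMM) at -0.36, CCT2 at -0.042, CCT4 at -0.24 and CCT6A at -0.0069, and with a pseudocount of 0.1 these values were -0.067, -0.15, -0.083, -0.36, -0.042, -0.24 and -0.0069. The cause was not tested. HSPA9 was also below 0 with library totals (-0.18) and without a count filter (-0.11), and HSPA8, not called with TMM, was at -0.12 on log2(TPM + 1). With their direction kept, DNAJB4, HSPA4, DNAJA1, PTGES3, HSPD1, CCT2 and CCT6A gave no call with library totals, and these 7 and CCT4 (0.0091, edgeR adjusted p = 0.96) gave none without a count filter, where 22 of 36 members rose, against 5519 of 29138 genes. HSPA1A, HSPA1B, DNAJB6, FKBP4, PTGES3, HSPD1 and TRAP1 gave none on log2(TPM + 1).

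With library totals 2 members fell, and the medians of the inducible, constitutive, mitochondrial and TRiC genes were 0.66, 0.43, 0.24 and 0.55. Without a count filter they were 0.63, 0.50, 0.31 and 0.63. On log2(TPM + 1) 17 members rose and 4 fell, with medians of 0.50, 0.20, 0.062 and 0.38. With a pseudocount of 0.1 again 17 rose and 4 fell, against 2444 and 7299 of 14394 genes, with medians of 0.50, 0.20, 0.062 and 0.38. Without a TPM filter 16 rose and 4 fell, against 3039 and 7365 of 27872 genes, with medians of 0.38, 0.20, 0.062 and 0.38. The median of the members stood 0.35 above the median of all genes without this filter, and 0.79 above it with the filter. In that fit and in the one without a count filter HSPB8 and CRYAB enter the inducible class. With DMSO replicates 1 and 2 thinned 0 members fell at an adjusted p under 0.05 in edgeR (DNAJA4 at an adjusted p of 0.0635), against 1 at an unadjusted p under 0.05 and 1 with DESeq2 or limma-voom on unthinned counts. Of all 13569 genes tested with thinning 4179 fell. The inducible median was 0.93 against DMSO replicate 3 alone.

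Leaving out each library in turn, 27 to 29 members rose and 1 fell, with medians of 0.90 to 1.03 (inducible), 0.66 to 0.75 (constitutive), 0.49 to 0.56 (mitochondrial) and 0.77 to 0.89 (TRiC). Of all genes tested, 13875 to 14060 in number, 3848 to 4464 rose and 3888 to 4800 fell. Calls were lost for DNAJB4 in 5 of these 6 fits, for DNAJA1 and CCT4 in 4 each and for HSPA4 in 2, as given with their values above. Same-numbered samples of the groups correlated at 0.046, 0.0034 and 0.039 in their deviations from the group means, so the numbers were not taken as pairs. With the replicate number as a block 29 members rose and 1 fell, against 4107 and 4190 of 13597 genes. In this fit DNAJB4 (edgeR adjusted p = 0.0667) and CCT4 (edgeR adjusted p = 0.0566) no longer passed and HSPA8 passed (edgeR adjusted p = 0.0361). What the depth of the libraries with 1966742 to 5955296 counts and the spread between replicates each added to the error was not tested.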
